A study of Mus musculus with 6 samples.

Results

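The mouse mitochondrial genome is a small circular DNA that encodes 13 subunits of the respiratory chain and ATP synthase, the 2 ribosomal RNAs (rRNAs) of the mitochondrial ribosome and 22 transfer RNAs (tRNAs). Its transcripts were taken as the rows of the expression table whose gene symbol begins with mt-, which gave 37 of 55401 rows, all on chromosome MT. The 13 messenger RNAs (mRNAs), the 2 rRNAs and the 22 tRNAs are described apart. All 37 had the position and strand of mouse GENCODE release M21 (genome build GRCm38), and 36 passed the filter for testing, a mean of at least 1 FPKM (fragments per kilobase and depth, a level per transcript length). The exception was the tRNA *mt-Tf*, with 1 to 3 counts per library.

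The study asked how costunolide (COS, a sesquiterpene lactone made by plants) bears on liver injury by acetaminophen (APAP, paracetamol), in liver of C57BL/6 mice. The 3 groups held 2 libraries each: control mice (replicates 1 and 3), mice 6 h after 400 mg/kg APAP given into the peritoneum (replicates 1 and 3), and mice that had also received COS at 20 mg/kg, 12 h and again 40 min before that APAP dose (COS+APAP, replicates 2 and 3). No group received COS alone, and the labels give neither age nor sex. The protocol text assigns the COS pretreatment to samples 5 and 6, which are titled as APAP models in accession order. Groups follow the titles and treatment fields, and if the protocol text were right every difference between APAP and COS+APAP would change sign and the comparisons of each with control would trade places. COS+APAP titles begin with 2 and all other titles with 1, so a batch behind that digit and COS cannot be told apart. The labels do not say whether a group's 2 libraries are different mice, so p-values measure only the spread between these libraries, which may be technical.

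As background, both strands of mitochondrial DNA are transcribed by the polymerase POLRMT, with the factors TFAM and TFB2M, into long precursors that span many genes. The precursors are cut at the tRNAs that lie between the coding genes, and most of the released mRNAs receive a short poly(A) tail inside the organelle. APAP is converted in hepatocytes around the central vein to a reactive quinone imine that binds mitochondrial proteins, and mitochondrial dysfunction is a known feature of its toxicity. The libraries were made from RNA bound to poly(T) beads, so the level of a transcript and the share of it that carries a poly(A) tail cannot be told apart.

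Adjacent genes share bases, and some pairs cannot be counted apart there. *mt-Atp8* and *mt-Atp6*, subunits of ATP synthase, share 43 bases, and *mt-Nd4l* and *mt-Nd4*, subunits of complex I, share 7 on the same strand. *mt-Nd5* and *mt-Nd6*, also of complex I, overlap by 14 bases on opposite strands, and the sources used here do not say whether counting used strand. The shared bases are in capitals below, on the plus strand, from the GENCODE M21 transcripts, with equal stretches of the flanking genes in lower case.
mt-Atp8 and mt-Atp6, MT:7912-7984: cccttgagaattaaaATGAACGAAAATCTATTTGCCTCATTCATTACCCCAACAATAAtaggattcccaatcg
mt-Nd4l and mt-Nd4, MT:10152-10188: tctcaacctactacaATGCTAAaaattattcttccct
mt-Nd5 and mt-Nd6, MT:13537-13580: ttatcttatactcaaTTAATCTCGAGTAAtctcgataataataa
In each same-strand pair the capitals start with the first codon, ATG, of the downstream gene and end with the stop codon, TAA, of the upstream gene.

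Transcripts of the 13 protein-coding genes took less of the library after APAP, and an intermediate share after COS and APAP. They held 12.58% and 15.86% of all counts in control replicates 1 and 3, 8.13% and 7.255% with APAP (replicates 1 and 3), and 11.69% and 10.68% with COS+APAP (replicates 2 and 3). The APAP libraries were lowest and the control libraries highest, with no overlap between any 2 groups. In bulk tissue, fewer cells of a type and less RNA per cell cannot be told apart. The summed FPKM of 7 markers of hepatocytes around the central vein was also lowest in APAP (902 to 1309, against 2558 to 3290 in control and 2743 to 3329 with COS+APAP). That of 8 general hepatocyte markers was highest in APAP (54306 to 56440, against 45793 to 46240 in control and 42077 to 43925 with COS+APAP). The sum of 6 periportal hepatocyte markers was 1995 to 2325 in APAP, 1516 to 1963 in control and 2321 to 2370 with COS+APAP. The part of these cells in the mitochondrial share was not tested. The group means of the share of the 13 genes were 14.22% ± 2.32 (SD, n = 2) in control, 7.692% ± 0.619 in APAP and 11.19% ± 0.715 with COS+APAP. The log2 ratio of the means was -0.89 for APAP against control, 0.54 for COS+APAP against APAP and -0.35 for COS+APAP against control. The last became -0.17 without control replicate 3 and -0.22 as a share of summed FPKM. With 2 libraries against 2, the two-sided exact permutation p was 0.333 for each of the 3 ratios, the smallest that this design allows. The libraries held 71115112 to 76669799 counts, so that the 95% Wilson interval of each share reached at most 0.0084 percentage points to either side. These intervals cover counting error only. The rRNAs took 0.0822% to 0.1962% of the counts, and the tRNAs 0.01998% to 0.03099%.

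**Figure D1:**
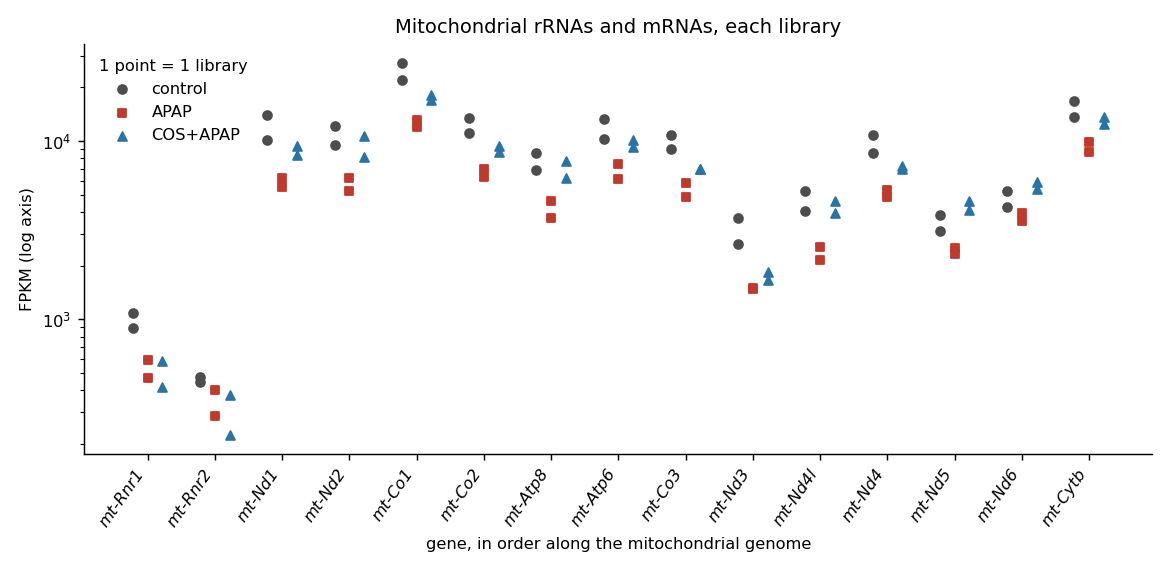
FPKM on a log axis for the 2 rRNAs and 13 mRNAs in their order along the mitochondrial genome, with 1 point for each of the 6 libraries. For all 13 mRNAs the APAP points (squares) lie below the COS+APAP points (triangles) and below the control points (circles).

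Levels per length spanned more than a factor of 7 among the 13 mRNAs within each group, by the values of the mt- rows alone. Nuclear copies, described below, hold about as many counts as *mt-Co2*, *mt-Atp6*, *mt-Co3*, *mt-Nd3* and *mt-Nd4l*, and fewer than *mt-Co1* and *mt-Nd4*. Their reads cannot be told from those of the mitochondrial genes, so the ranks given here, including the second and the lowest, are uncertain. *mt-Co1*, the catalytic subunit of cytochrome c oxidase (complex IV), was highest, at 24760.0 ± 3950.0 FPKM in control (SD, n = 2), 12580.0 ± 815.0 in APAP and 17620.0 ± 774.0 with COS+APAP. *mt-Cytb*, cytochrome b and the sole mitochondrially encoded subunit of complex III, came second in all 3 groups. *mt-Nd3*, a small complex I subunit, was lowest, at 3182.0 ± 747.0, 1489.0 ± 20.4 and 1757.0 ± 125.0 FPKM. In control, *mt-Co1*, *mt-Cytb* and *mt-Co2* were separated without overlap. Each neighbouring pair from *mt-Co2* through *mt-Nd1*, *mt-Atp6*, *mt-Nd2* and *mt-Co3* to *mt-Nd4* overlapped in its library values. *mt-Nd5* ranked 12th in control, next to *mt-Nd3*, and 11th in APAP and in COS+APAP, where it was next to *mt-Nd4l* with overlapping values.

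After APAP, 10 of the 13 mRNAs fell against control, 0 rose and 3 did not pass the test. All 13 estimates were negative, with a median log2 fold change of -0.76 and a range of -0.96 to -0.20, beside a median of 0.0 over the 10051 genes tested. Genes were called at an adjusted p below 0.05 by edgeR's quasi-likelihood F test, with Benjamini-Hochberg adjustment over all genes tested, and 22.1% of all genes tested were called lower in this comparison (45.4% in either direction). For 12 of the 13 the groups did not overlap, beside 38.4% of all genes tested that were lower without overlap. The count depended on single libraries: it was 11 without control replicate 1, 3 without control replicate 3, 4 without APAP replicate 1 and 0 without APAP replicate 3, all lower. DESeq2 and limma on log2(FPKM + 1) each called 12 lower. In the fits without a library the group left with 1 library is assumed to vary like the other groups.

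Among the 7 complex I genes, 5 fell. *mt-Nd1*, which helps form the quinone-binding site (ENSMUSG00000064341, MT 2751 to 3707), had 10161 and 14085 FPKM in control, 6229 and 5518 with APAP, and 9374 and 8399.9 with COS+APAP. The APAP libraries were lowest, without overlap, and the log2 fold change against control was -0.90 ± 0.21 (SE, adjusted p = 0.0202). *mt-Nd2*, an antiporter-like proton-pumping subunit, had 9512 and 12178 FPKM in control, 6222 and 5256 with APAP, and 10726 and 8130.4 with COS+APAP. Its change after APAP was -0.78 ± 0.23 (adjusted p = 0.0394), and the control and COS+APAP values overlapped. *mt-Nd3* had 2654 and 3711 FPKM in control and 1503 and 1474 in APAP. It was the most reduced mRNA in this comparison, at -0.96 ± 0.18 (adjusted p = 0.01). *mt-Nd4l* (4039 and 5256 FPKM in control, 2556 and 2142 in APAP) fell by 0.84 on the log2 scale (adjusted p = 0.0166). *mt-Nd4*, a further antiporter-like subunit, had 8591 and 10880.2 FPKM in control, 5294 and 4823 with APAP, and 7251 and 6986 with COS+APAP, and fell by 0.80 after APAP (adjusted p = 0.019).

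The other 2 complex I genes, adjacent between *mt-Nd4* and *mt-Cytb*, had the smallest estimates of the 13 in this comparison. *mt-Nd5*, the third antiporter-like subunit (ENSMUSG00000064367, MT 11742 to 13565), had 3112 and 3853 FPKM in control, 2507 and 2313 with APAP, and 4582 and 4084 with COS+APAP. The control and APAP values did not overlap, and the difference was -0.39 ± 0.18, not called by edgeR (adjusted p = 0.122) and called lower by DESeq2 and limma. *mt-Nd6* is the only protein-coding gene on the minus strand (ENSMUSG00000064368, MT 13552 to 14070). It had 4249 and 5242 FPKM in control, 3933 and 3555 with APAP, and 5884 and 5373 with COS+APAP. Its difference between APAP and control was -0.20 ± 0.16 (adjusted p = 0.346). For *mt-Nd6* the groups did not overlap in FPKM but did after TMM scaling, edgeR's correction of the library totals, which set the call.

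All 3 complex IV genes fell after APAP. *mt-Co1* (ENSMUSG00000064351, MT 5328 to 6872) had 21966 and 27548 FPKM in control, 13159 and 12007 with APAP, and 18170.0 and 17076 with COS+APAP. Its log2 fold change after APAP was -0.84 ± 0.21 (adjusted p = 0.0247). *mt-Co2*, the subunit that accepts electrons from cytochrome c, had 11095 and 13500.0 FPKM in control, 7001 and 6321 with APAP, and 9359.9 and 8679.5 with COS+APAP, with a change of -0.74 ± 0.17 (adjusted p = 0.0187). *mt-Co3* had 9077 and 10781 FPKM in control and 5815 and 4832 in APAP (-0.76 ± 0.18, adjusted p = 0.0203). Its 2 COS+APAP values, 6996 and 7013, lay between those of the other groups without overlap.

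Both ATP synthase genes fell as well. *mt-Atp8* had 6866 and 8546 FPKM in control, 4624 and 3691 with APAP, and 7711 and 6198 with COS+APAP, with a change of -0.75 ± 0.20 after APAP (adjusted p = 0.0298). *mt-Atp6*, which forms part of the proton channel, had 10237 and 13232 FPKM in control, 7481 and 6119 with APAP, and 10099 and 9259.7 with COS+APAP. Its change of -0.65 ± 0.20 was the nearest of the called mRNAs to the threshold (adjusted p = 0.0483). *mt-Cytb* (13564 and 16812 FPKM in control, 9922.5 and 8699.6 with APAP, 13572 and 12432 with COS+APAP) differed by -0.57 ± 0.20 and was not called by edgeR (adjusted p = 0.0641). DESeq2 (adjusted p = 0.00462) and limma (0.0175) called it, as did edgeR without TMM (0.0271), at a mean FPKM of at least 5 (0.0413) and without control replicate 1 (0.0407).

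**Figure D2:**
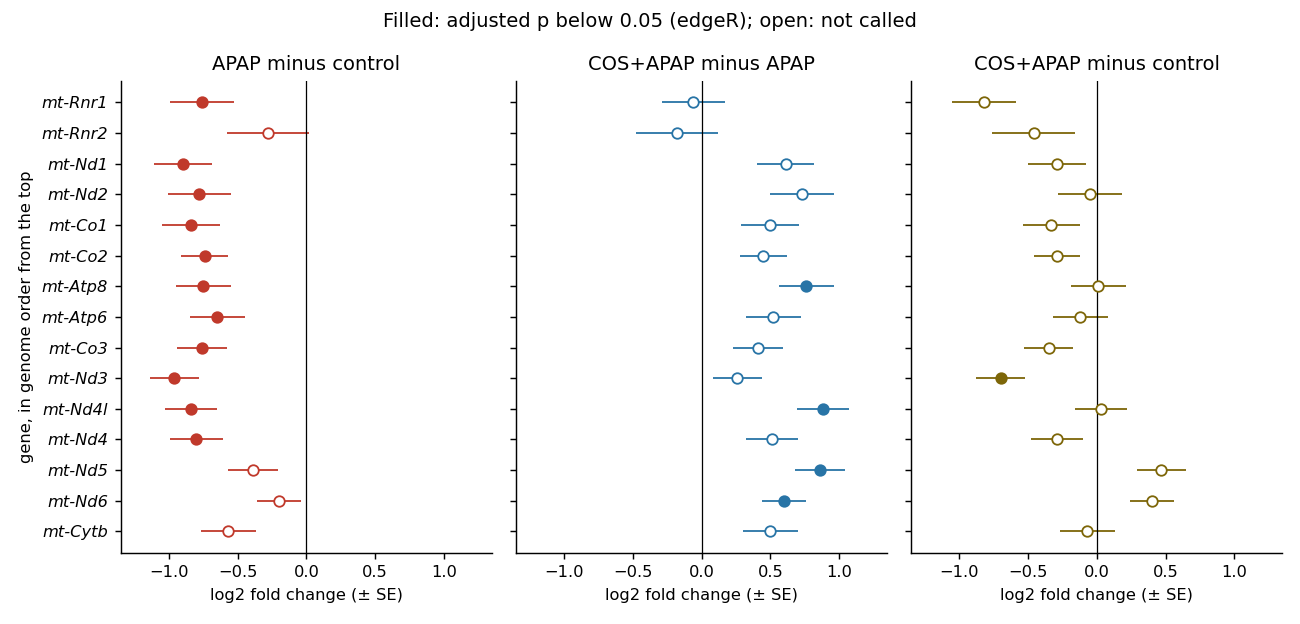
Log2 fold change with its SE for each rRNA and mRNA, in genome order from the top, in the 3 comparisons; filled points have an adjusted p below 0.05. All mRNA points lie left of 0 for APAP minus control (-0.96 to -0.20) and right of 0 for COS+APAP minus APAP (0.26 to 0.88).

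With COS given before APAP, all 13 mRNAs were higher than with APAP alone in both libraries, and 4 of them passed the test. The groups did not overlap for any of the 13, beside 35.1% of all genes tested that were higher without overlap. The median log2 fold change was 0.52 and the median of all genes tested 0.01. The called genes were *mt-Nd4l*, *mt-Nd5*, *mt-Atp8* and *mt-Nd6*, beside 11.2% of all genes tested called higher. *mt-Nd4l*, at 4588 and 3940.1 FPKM in COS+APAP, rose by a log2 fold change of 0.88 ± 0.19 (adjusted p = 0.0282). The change was 0.86 ± 0.18 for *mt-Nd5* (adjusted p = 0.0249), 0.76 ± 0.20 for *mt-Atp8* (adjusted p = 0.0488) and 0.60 ± 0.16 for *mt-Nd6* (adjusted p = 0.0488). The other 9 had estimates from 0.26 (*mt-Nd3*) to 0.73 (*mt-Nd2*, adjusted p = 0.0741). Leaving out any of the 4 libraries left 0 of the 13 called. DESeq2 called 11 and limma on log2(FPKM + 1) called 3, all higher. This comparison shares its APAP libraries with that of APAP against control.

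Against control, 12 of the 13 mRNAs were not called in COS+APAP livers, with estimates in both directions. *mt-Nd3* was the 1 gene called, lower by a log2 fold change of -0.70 ± 0.18 (adjusted p = 0.0479), beside 10.3% of all genes tested called lower. It had 1669 and 1846 FPKM in COS+APAP, below both control values, and was not called without control replicate 3 or without either COS+APAP library (adjusted p up to 0.173 when a library was left out). The highest estimates were those of *mt-Nd5* (0.47 ± 0.18, adjusted p = 0.114) and *mt-Nd6* (0.40 ± 0.16, adjusted p = 0.132). Neither passed the test, although both COS+APAP libraries were above both control libraries, as were 34.6% of all genes tested, and DESeq2 called *mt-Nd5* higher (adjusted p = 0.0266). In all, 5 mRNAs, the 3 complex IV genes with *mt-Nd3* and *mt-Nd4*, were lower without overlap, beside 31.7% of all genes tested. The median over the 13 was -0.12. The mean level of COS+APAP lay between the means of the other groups for 9 of the 13. It lay above both for *mt-Atp8*, *mt-Nd4l*, *mt-Nd5* and *mt-Nd6* after TMM scaling, but without TMM the estimates against control were -0.17 for *mt-Atp8* and -0.14 for *mt-Nd4l*.

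The composition of the mitochondrial mRNA pool does not depend on how library totals are scaled. It was compared as the share of each gene in the summed counts. The only fit of these shares, given below, called 0 of the 13. That fit draws its estimates of spread partly from all 10051 genes tested. A gene that misses its threshold is therefore not shown to have an unchanged share. The summed counts leave out the nuclear copies described below, so every share depends on how reads were assigned to those copies. *mt-Nd5* made up 4.98% and 4.88% of the summed counts of the 13 mRNAs in control, 6.12% and 6.38% with APAP, and 7.78% and 7.62% with COS+APAP. No 2 groups overlapped, and the order was control, APAP, COS+APAP. *mt-Nd6* made up 1.93% and 1.89% in control, 2.73% and 2.79% with APAP, and 2.84% and 2.85% with COS+APAP. Its share was higher in all 4 treated libraries than in either control library. *mt-Cytb* had 13.6% and 13.4% in control, 15.2% and 15% with APAP, and 14.5% in each COS+APAP library.

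Over all 13 mRNAs, shares without overlap were common, and the 6 genes given are examples. Without overlap, 4 shares were higher and 6 lower in APAP against control. The numbers were 5 and 5 in COS+APAP against APAP, and 6 and 6 in COS+APAP against control. The values of 3 further genes are as follows. *mt-Co1* held 29.8% and 29.6% in control, 27.2% and 28.1% with APAP, and 26.1% and 27.0% with COS+APAP. *mt-Nd3* held 0.81% and 0.897% in control, 0.70% and 0.776% with APAP, and 0.541% and 0.657% with COS+APAP. *mt-Nd4l* was higher in COS+APAP (1.27% and 1.20%) than in control (1.05% and 1.08%) or APAP (1.02% and 0.962%). These non-overlaps are given as values, without support from the fit. With the summed counts of the 13 mRNAs as the library size, a setting chosen after seeing the data, edgeR called 0 of the 13 in any comparison, and no other tool was run. At an unadjusted p below 0.05 it counted 1 for APAP against control, 0 for COS+APAP against APAP and 2 for COS+APAP against control. The values nearest to the threshold in that fit were *mt-Nd6* in APAP against control (0.53 ± 0.20, adjusted p = 0.0516) and *mt-Nd5* in COS+APAP against control (0.64 ± 0.19, adjusted p = 0.0633).

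**Figure D3:**
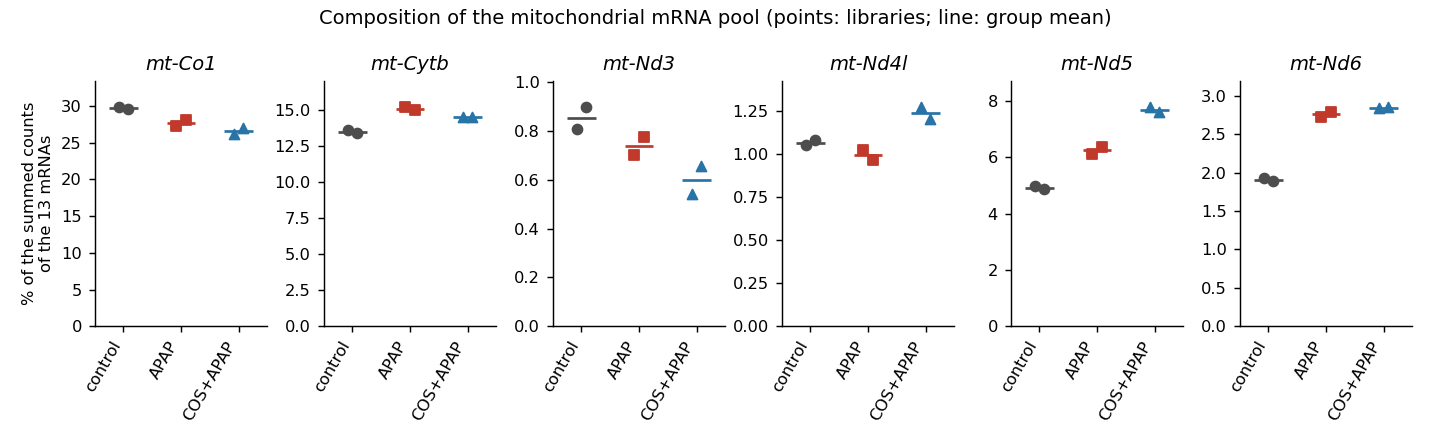
Percentage of the summed counts of the 13 mRNAs held by each of 6 genes, with 1 point per library and a line at the group mean; each panel has its own axis from 0. *mt-Nd5* separates the 3 groups (4.88% to 4.98%, 6.12% to 6.38% and 7.62% to 7.78%), and *mt-Nd6* separates control (at most 1.93%) from both treated groups (at least 2.73%). Shares without overlap between groups were common among the 13.

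The 2 rRNAs had means with COS+APAP below those of both other groups, without a called difference from APAP. *mt-Rnr1*, the rRNA of the small ribosomal subunit (MT 70 to 1024), had 890.8 and 1078.0 FPKM in control, 588.7 and 465.4 with APAP, and 418.8 and 580.2 with COS+APAP. It fell after APAP by a log2 fold change of -0.76 ± 0.23 (adjusted p = 0.0407) and was not called when any 1 of those 4 libraries was left out (adjusted p from 0.0573 to 0.168). COS+APAP was lower than control by -0.82 ± 0.23 (adjusted p = 0.056) and differed from APAP by -0.06 ± 0.23, with overlapping values. *mt-Rnr2*, the rRNA of the large subunit (MT 1094 to 2675), had 447.4 and 474.7 FPKM in control, 400.4 and 285.5 with APAP, and 224.5 and 376.1 with COS+APAP. Its differences were -0.28 ± 0.30 (APAP against control), -0.18 ± 0.30 (COS+APAP against APAP) and -0.46 ± 0.30 (COS+APAP against control), and none passed the test. Of the 2 rRNAs, 0 were called by edgeR, DESeq2 or limma between COS+APAP and APAP, and 0 had an unadjusted p below 0.05. In COS+APAP against control, edgeR called 0, with 1 at an unadjusted p below 0.05, and DESeq2 and limma each called *mt-Rnr1*. COS+APAP replicate 2 had the lowest value of the 6 libraries for both rRNAs.

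The tRNA rows are 59 to 75 bases long, below the average insert of 300 base pairs that the labels give, so a fragment of average length cannot lie within such a row. Mature tRNA and longer RNA that spans a tRNA gene cannot be told apart in these values. Of the 21 rows tested, 6 fell after APAP and 0 rose, beside 22.1% of all genes tested called lower and 23.3% called higher. At an unadjusted p below 0.05, 7 were lower and 1 higher, and DESeq2 called 8 lower and 1 higher. The median log2 fold change was -0.07 and the range -4.02 to 0.94. Groups did not overlap for 8 rows that were lower and 2 that were higher, beside 38.4% and 38.0% of all genes tested. With 1 library left out, 3 to 8 were called, with 3 without APAP replicate 3. Between COS+APAP and APAP, 2 rose, *mt-Tm* and *mt-Tp*, a share near the 11.2% of all genes tested, and 0 fell, with 1 lower at an unadjusted p below 0.05, by DESeq2 and by limma. In that comparison 7 rows were higher and 4 lower without overlap, beside 35.1% and 34.3% of all genes tested. Between COS+APAP and control 1 was lower, *mt-Ti*, beside 10.3% of all genes tested. *mt-Te*, for glutamate, held 48.8% to 61.9% of all tRNA counts and lies on the minus strand next to *mt-Nd6*. It had 1643 and 1989 FPKM in control, 1826 and 1633 with APAP, and 2069 and 2038 with COS+APAP, and its control and APAP values overlapped.

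The 3 adjacent tRNA genes between *mt-Nd1* and *mt-Nd2* fell together after APAP. Their sequences are shown from their own strand with the anticodon in capitals, because they lie between these 2 mRNAs. *mt-Tq* lies on the minus strand, opposite both mRNAs, and the other 2 on the plus strand. *mt-Ti* carries isoleucine, *mt-Tq* glutamine and *mt-Tm* methionine.
mt-Ti, plus strand, MT:3706-3774: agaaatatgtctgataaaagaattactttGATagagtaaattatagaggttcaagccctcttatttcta
mt-Tq, minus strand, MT:3772-3842: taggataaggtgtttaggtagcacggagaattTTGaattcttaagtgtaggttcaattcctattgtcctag
mt-Tm, plus strand, MT:3845-3913: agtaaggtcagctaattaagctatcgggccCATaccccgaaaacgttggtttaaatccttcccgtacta
*mt-Ti* had 132.3 and 171.4 FPKM in control, 27.2 and 29.2 with APAP, and 28.3 and 41.9 with COS+APAP. It was low in all 4 treated libraries, with log2 fold changes of -2.29 ± 0.28 for APAP (adjusted p = 0.00292) and -1.95 ± 0.27 for COS+APAP (adjusted p = 0.01) against control. *mt-Tm* had 142.2 and 175.4 FPKM in control, 38.6 and 29.4 with APAP, and 117.8 and 96.3 with COS+APAP. It fell by 2.08 after APAP (adjusted p = 0.00255) and was higher by 1.67 ± 0.24 with COS+APAP than in APAP (adjusted p = 0.0113). *mt-Tq* had 32.9 and 47.6 FPKM in control, 10.98 and 5.51 with APAP, and 24.5 and 22.8 with COS+APAP. It fell by 2.14 after APAP (adjusted p = 0.0123), and COS+APAP exceeded APAP by 1.53 ± 0.43, which edgeR did not call (adjusted p = 0.0568) and DESeq2 and limma did. Calls were lost for *mt-Tq* after APAP without control replicate 3 (adjusted p = 0.0539), for *mt-Tm* in COS+APAP against APAP without COS+APAP replicate 2 (0.0543) and for *mt-Ti* in COS+APAP against control without control replicate 3 (0.0527). Together the 3 rows held 1773 and 2204 counts in control, 424 and 374 with APAP, and 917 in each COS+APAP library. For these 3 the APAP values stood at -2.29 to -2.08 on the log2 scale, while the mRNAs on either side stood at -0.90 and -0.78.

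The next tRNA cluster, *mt-Tw*, *mt-Ta*, *mt-Tn*, *mt-Tc* and *mt-Ty* between *mt-Nd2* and *mt-Co1*, had 0 of 5 members called by edgeR in any comparison. For APAP against control 1 of the 5, *mt-Tw* for tryptophan, had an unadjusted p below 0.05 and was called higher by DESeq2, at 30.3 and 37.6 FPKM in control, 69.7 and 48.6 with APAP, and 24.2 and 33.8 with COS+APAP. In COS+APAP against APAP *mt-Tw* again was the 1 member with an unadjusted p below 0.05, lower in COS+APAP, and DESeq2 and limma called it. For COS+APAP against control 0 of the 5 were called by DESeq2 or limma, and 0 had an unadjusted p below 0.05. The summed counts of this cluster were 2218 and 2284 in control, 2655 and 1922 with APAP, and 1438 and 2517 with COS+APAP, with overlap between all groups. The 4 other members lie on the minus strand, opposite the mRNAs on either side.

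The cluster *mt-Th*, *mt-Ts2* and *mt-Tl2* between *mt-Nd4* and *mt-Nd5* had the largest estimates. *mt-Tl2*, for leucine, had 19.3 and 59.3 FPKM in control, 3.08 and 1.04 with APAP, and 10.2 and 5.20 with COS+APAP. It fell by 4.02 on the log2 scale after APAP (adjusted p = 0.0127). *mt-Th*, for histidine, had 27.2 and 65.3 FPKM in control, 8.07 and 3.58 with APAP, and 22.7 and 12.8 with COS+APAP, and fell by 2.82 (adjusted p = 0.0184). *mt-Ts2*, for serine, had 1.68 and 64.41 FPKM in control, so that 1 library was high and the other within the range of APAP (3.81 and 0.97), and it was not called by edgeR (adjusted p = 0.12) but was called lower by DESeq2. Control replicate 3 held 1000 counts over the 3 genes and control replicate 1 held 276. With libraries left out 1 at a time, the estimate of *mt-Tl2* ran from -4.95 to -3.02 and that of *mt-Th* from -3.53 to -2.07. *mt-Tl2* was not called without APAP replicate 3 (adjusted p = 0.0602), nor *mt-Th* without control replicate 3 (0.0709) or APAP replicate 3 (0.0784).

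At the end of the genome, *mt-Tp*, for proline, had 354.7 and 542.7 FPKM in control, 202.1 and 191.3 with APAP, and 375.2 and 318.6 with COS+APAP. It fell by 1.05 after APAP (adjusted p = 0.0138) and was higher by 0.84 ± 0.22 with COS+APAP than in APAP (adjusted p = 0.0479). It was not called after APAP without APAP replicate 1 (adjusted p = 0.0536) or APAP replicate 3 (0.0689), nor against APAP with any 1 of those 4 libraries left out (0.104 to 0.177). *mt-Tl1*, for the other leucine codons, lies between *mt-Rnr2* and *mt-Nd1* and had 263.8 and 358.2 FPKM in control, 454.9 and 308.8 with APAP, and 286.8 and 255.9 with COS+APAP, not called in any comparison. The single rows *mt-Tg* (26.6 and 62.2 FPKM in control, 20.0 and 10.9 in APAP) and *mt-Tr* (19.1 and 41.5, then 12.8 and 11.9) were lower in both APAP libraries and were not called by edgeR, while DESeq2 called *mt-Tg* lower. The remaining tested rows were *mt-Tt* (6.06 to 16.87 FPKM over the 6 libraries), *mt-Tv* (0.34 to 4.29), *mt-Tk* (4.18 to 14.07), *mt-Td* (1.79 to 8.64) and *mt-Ts1* (10.4 to 50.7), and none of these was called.

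**Figure D4:**
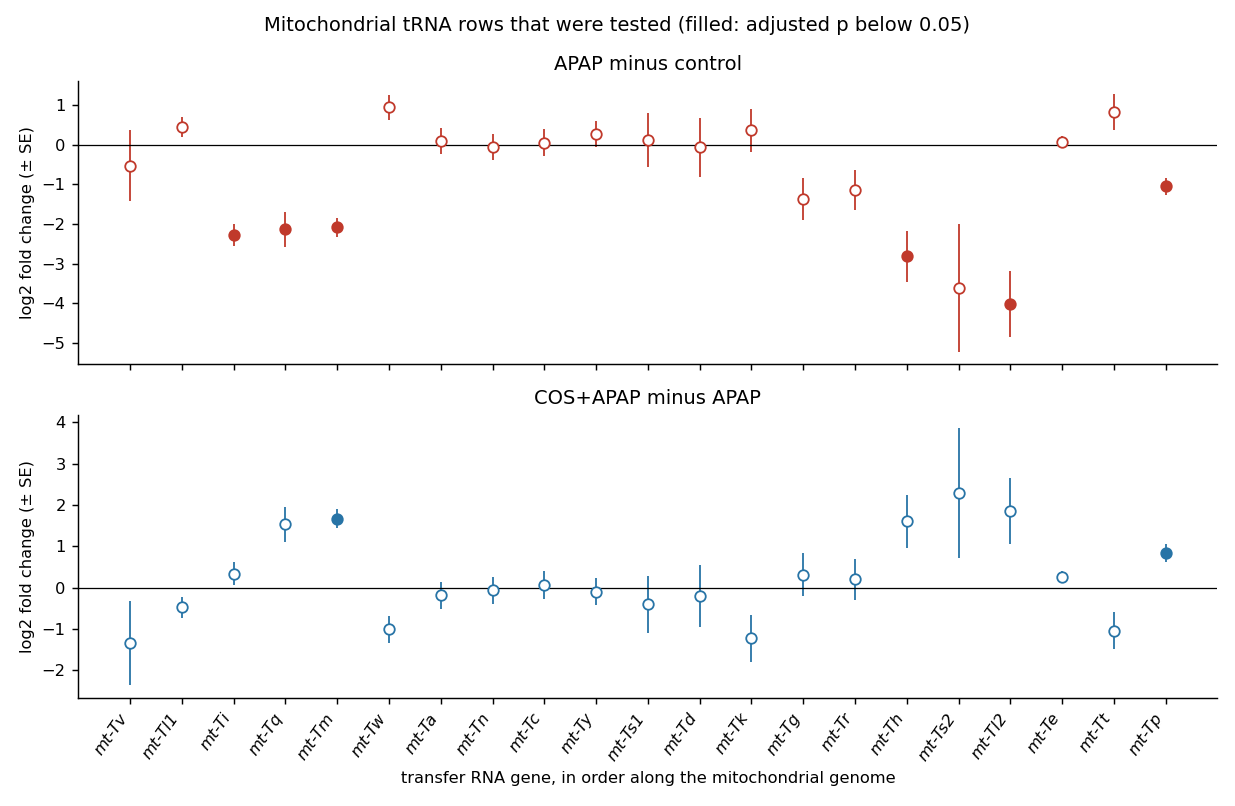
Log2 fold change with its SE for the 21 tested tRNA rows in genome order, for APAP minus control (upper panel) and COS+APAP minus APAP (lower panel); filled points have an adjusted p below 0.05. The 3 neighbours *mt-Ti*, *mt-Tq* and *mt-Tm* lie between -2.29 and -2.08 in the upper panel, while the 5 rows from *mt-Tw* to *mt-Ty* lie between -0.05 and 0.94.

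The nuclear genome holds copies of mitochondrial DNA, and 7 of them, side by side on chromosome 1 (24611535 to 24616197), are rows of their own. Their transcripts matched mitochondrial genes at 99.8% identity (*Gm29216* with *mt-Co1*, over 483 aligned bases) or without a mismatch in the aligned part (the other 6). For the 5 that span nearly the whole gene the copy held 0.961 to 1.10 times the counts of its mitochondrial gene in every library. *Gm28661*, for example, had 636010 counts in control replicate 1 and *mt-Co2* 631835. *Gm28439*, which matches 876 of the 1378 bases of *mt-Nd4*, held 0.293 to 0.32 times its counts, and *Gm29216* held 0.213 to 0.245 times those of *mt-Co1*. Reads from such identical stretches cannot be assigned to either locus, so the values of *mt-Co1*, *mt-Co2*, *mt-Co3*, *mt-Atp6*, *mt-Nd3*, *mt-Nd4l* and *mt-Nd4* are uncertain to that extent. The copies added 3.92% and 4.93% of all counts in control, 2.538% and 2.171% with APAP, and 3.339% and 3.072% with COS+APAP to the shares above. All 7 were called lower after APAP (log2 fold change -0.97 to -0.71), beside 22.1% of all genes tested. Fewer were called without control replicate 3 or either APAP library. Because their reads cannot be told from those of the matching mitochondrial genes, calls of the copies are not separate results. *Gm10222*, the copy of *mt-Nd4l*, rose in COS+APAP against APAP (0.86, adjusted p = 0.0319). *Gm28438*, the copy of *mt-Nd3*, was lower in COS+APAP than in control (-0.72, adjusted p = 0.0433). Neither of these 2 calls held without COS+APAP replicate 2 or 3, the first also not without either APAP library and the second not without control replicate 3.

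**Figure D5:**
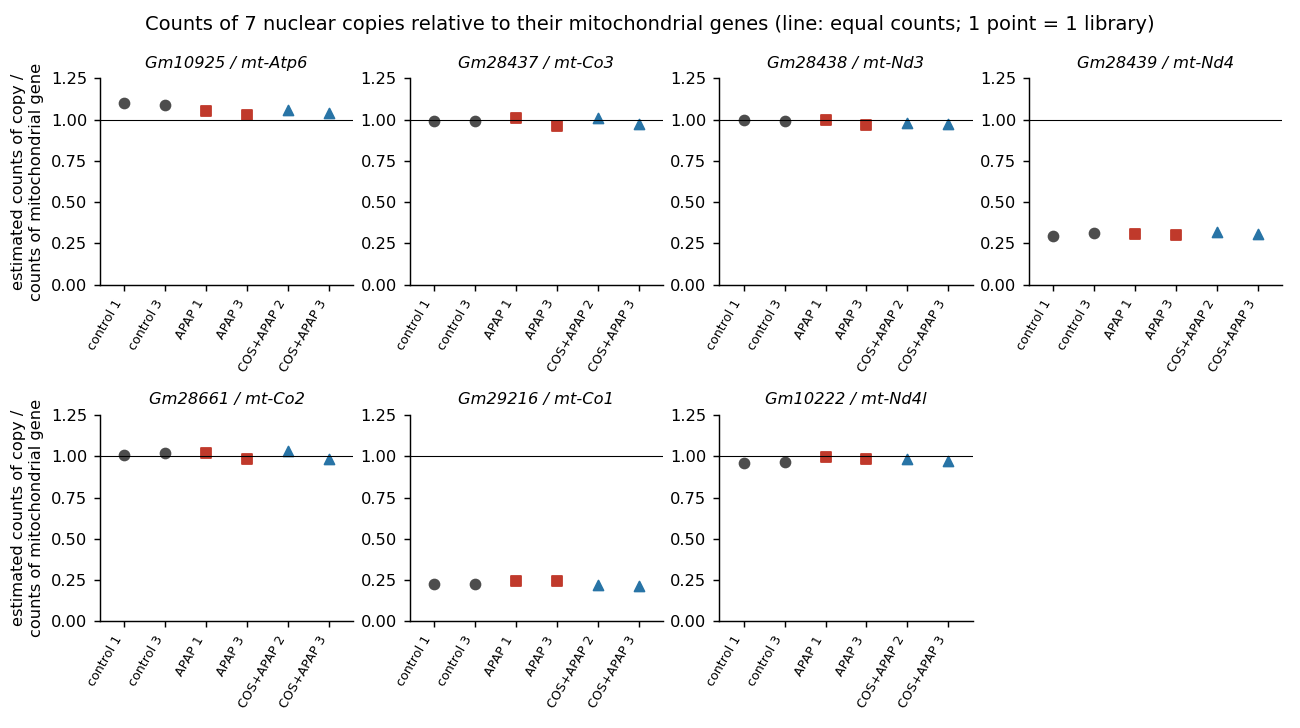
Estimated counts of each of 7 nuclear copies divided by those of its mitochondrial gene, with 1 point per library and a line at equal counts. The 5 copies of nearly whole genes lie between 0.961 and 1.10 in all 6 libraries, and the copies of parts of *mt-Nd4* and *mt-Co1* between 0.213 and 0.32.

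Nuclear genes that act on the mitochondrial genome were described from lists by function, without a test of any list. Of the 9 tested genes of mitochondrial transcription, 4 fell after APAP and 0 rose by edgeR, beside 22.1% and 23.3% of all genes tested, with 1 higher at an unadjusted p below 0.05. DESeq2 called 1 higher and 5 lower. The 4 became 2 without control replicate 3 or without APAP replicate 1. *Polrmt*, the polymerase (-0.26 ± 0.20, adjusted p = 0.329), *Tfam*, which packs the DNA and opens its promoters (0.17 ± 0.12, adjusted p = 0.266), and *Tfb2m*, which melts them (0.46 ± 0.16, adjusted p = 0.0657), were not called by edgeR, and *Tfb2m* was called higher by DESeq2. *Tfb1m*, an rRNA methyltransferase (2.43 and 2.10 FPKM in control, 0.75 and 0.96 with APAP, 2.27 and 1.93 with COS+APAP), fell by 1.27 after APAP (adjusted p = 0.0061) and was higher by 1.31 with COS+APAP than in APAP (adjusted p = 0.0141). The elongation factor *Tefm* (-0.77 and then 0.86, adjusted p = 0.04 and 0.0488) and *Mterf2* (-1.66 and then 1.10, adjusted p = 0.00689 and 0.0413) were called in the same 2 comparisons. These 3 were the genes of the list that rose in COS+APAP against APAP, beside 11.2% of all genes tested, and 0 did so without APAP replicate 1 or COS+APAP replicate 2, 1 without COS+APAP replicate 3 and 2 without APAP replicate 3. *Top1mt*, the mitochondrial topoisomerase, fell by 0.59 after APAP (adjusted p = 0.0145). *Mterf3* (-0.31, adjusted p = 0.0945) and *Mterf4* (0.00, adjusted p = 1.0) were not called by edgeR, and *Mterf3* was called lower by DESeq2 and limma. For COS+APAP against control 0 of the 9 were called by edgeR, DESeq2 or limma, with 1 at an unadjusted p below 0.05.

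The mitochondrial ribosome, which translates these mRNAs, is built from the 2 rRNAs and nuclear-encoded proteins. Of 79 tested genes for these proteins 44 fell and 0 rose, beside 22.1% and 23.3% of all genes tested (3 higher at an unadjusted p below 0.05, and 3 called higher by DESeq2), with a median log2 fold change of -0.48 beside the 0.0 of all genes. *Mrpl22* fell by 1.60 (31.2 and 35.9 FPKM in control, 9.32 and 10.7 with APAP, adjusted p = 0.00174) and *Mrps27* by 1.39 (21.2 and 22.8, then 7.23 and 8.01, adjusted p = 0.00213). With libraries left out 1 at a time the number called lower ran from 27 (without control replicate 3) and 28 (without APAP replicate 1) to 32, and 1 was called higher without control replicate 3. In COS+APAP against APAP 13 rose and 2 fell, beside 11.2% and 11.1% of all genes tested, and the number that rose was 0 without APAP replicate 1 or COS+APAP replicate 2, 1 without COS+APAP replicate 3 and 3 without APAP replicate 3. In COS+APAP against control 23 were lower and 0 higher, beside 10.3% and 10.7% of all genes tested (2 higher at an unadjusted p below 0.05, and 1 called higher by DESeq2), with 11 lower without control replicate 1, 4 without COS+APAP replicate 2, and 3 without control replicate 3 or COS+APAP replicate 3. Of 16 aminoacyl-tRNA synthetases, which charge the tRNAs, 6 fell after APAP, beside 22.1% of all genes tested. Among them was *Cars2*, which fell by 0.92 (adjusted p = 0.0105). Of 11 translation factors 4 fell, beside the same 22.1%, among them the initiation factor *Mtif2* (by 0.96, adjusted p = 0.00317) and the methionyl-tRNA formyltransferase *Mtfmt* (by 0.79, adjusted p = 0.0304). After APAP 0 of either list rose by edgeR, DESeq2 or limma, and 0 were higher at an unadjusted p below 0.05. In COS+APAP against APAP edgeR called 3 synthetases and 2 factors higher and 0 lower, beside 11.2% and 11.1% of all genes tested. Most of these calls were lost with a library left out. With 1 library left out, the median log2 fold change after APAP ran from -0.56 to -0.44 for the synthetases and from -0.46 to -0.36 for the factors. Fewer synthetases were called with any 1 library left out, and fewer factors except without control replicate 1.

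The remaining lists were mixed. Of 74 tested nuclear-encoded subunits of complexes I, III, IV and V, 8 rose and 23 fell after APAP, beside 23.3% and 22.1% of all genes tested, with a median of -0.26, beside the -0.76 of the 13 mitochondrial mRNAs. With a library left out, 3 rose and 9 fell without control replicate 3, 3 and 11 without APAP replicate 1, 4 and 10 without APAP replicate 3, and 5 rose without control replicate 1. *Cox7a2l*, which joins complexes III and IV, rose by 1.60 (adjusted p = 0.00151), and *Atp5b*, the catalytic beta subunit of ATP synthase, rose by 1.27 (adjusted p = 0.00234). Between COS+APAP and APAP, where all 13 mitochondrial mRNAs were higher, 0 of these 74 rose and 5 fell, beside 11.2% and 11.1% of all genes tested, with 1 higher at an unadjusted p below 0.05 and 1 called higher by DESeq2. The 5 were 1 without APAP replicate 3 and 0 without any other of the 4 libraries. Among 13 tested genes of mitochondrial DNA replication and the nucleoid 2 rose and 5 fell after APAP, beside 23.3% and 22.1% of all genes tested. Fewer rose without control replicate 3 or either APAP library. Those that fell included the helicase and nuclease *Dna2* (by 1.54, adjusted p = 0.00257) and the single-stranded DNA binding protein *Ssbp1* (by 1.33, adjusted p = 0.00198). Among 21 genes of RNA processing and stability 5 rose and 7 fell after APAP. Rises took a share near the 23.3% of all genes tested, beside 22.1% that fell, and fewer rose with any 1 library left out. *Slirp*, which with LRPPRC stabilizes mitochondrial mRNAs, fell by 1.29 (adjusted p = 0.00285), and *Angel2* fell by 1.14 (adjusted p = 0.0209). Among 18 genes of tRNA and rRNA modification 3 rose and 3 fell after APAP, beside 23.3% and 22.1% of all genes tested. Fewer fell with any 1 library left out. The largest changes were those of *Yrdc* (1.33, adjusted p = 0.00239) and *Alkbh1* (1.11, adjusted p = 0.0102).

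Of 10 tested regulators of mitochondrial biogenesis, 3 rose after APAP and 0 fell, with 1 lower at an unadjusted p below 0.05, 0 called lower by DESeq2 and 1 by limma. Rises took a share near the 23.3% of all genes tested. *Ppargc1b*, a coactivator of the PGC-1 family, rose from 0.45 and 0.44 FPKM to 1.85 and 1.57 (log2 fold change 2.07, adjusted p = 0.00253), and *Pprc1*, of the same family, rose by 1.56 (adjusted p = 0.00243). Both were lower in COS+APAP than in APAP, by -0.92 (adjusted p = 0.0395) and -0.75 (adjusted p = 0.0334). Of the list 3 genes were lower and 2 higher there, beside 11.1% and 11.2% of all genes tested. The 3 became 0 without APAP replicate 1, APAP replicate 3 or COS+APAP replicate 2, and 1 without COS+APAP replicate 3, and the 2 became 0 without APAP replicate 1 and 1 without any other of the 4 libraries. Of 14 genes of mitochondrial dynamics and mitophagy 3 rose, again a share near 23.3%, and 0 fell by edgeR, DESeq2 or unadjusted p. The largest called rises were those of the mitophagy receptors *Bcl2l13* (1.54, adjusted p = 0.00182) and *Bnip3l* (1.07, adjusted p = 0.0124). The 3 rises became 6 without control replicate 1 and 1 without control replicate 3 or APAP replicate 3.

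Markers of cell types were measured in the same libraries. The hepatocyte list, all 8 of 8 tested, summed to 45793 to 46240 FPKM in control, 54306 to 56440 in APAP and 42077 to 43925 with COS+APAP. After APAP 3 of these 8 were called higher and 1 lower, beside 23.3% and 22.1% of all genes tested. The list of hepatocytes around the central vein, 5 of 7 tested, moved with the mitochondrial mRNAs. All 5 fell after APAP, beside 22.1% of all genes tested, and rose in COS+APAP against APAP, beside 11.2%. The erythroid list moved the other way, with 269 to 298 FPKM in control, 1075 to 1492 in APAP and 309 to 316 with COS+APAP. Of its 5 genes 4 rose after APAP, beside 23.3% of all genes tested. Neutrophil and monocyte markers summed to 3.67 to 5.85, 9.99 to 30.6 and 2.34 to 3.64 FPKM, with *Ly6g* at 0 in all 6 libraries. Periportal hepatocyte markers summed to 1516 to 1963, 1995 to 2325 and 2321 to 2370 FPKM. Sinusoidal endothelial markers summed to 21.9 to 24.9 FPKM in control, 30.9 to 32.6 in APAP and 19.6 to 21.1 with COS+APAP. Of these 6, 3 were higher after APAP, beside 23.3% of all genes tested. In COS+APAP against APAP 4 of the 6 were lower and 1 higher, beside 11.1% and 11.2% of all genes tested. Stellate cell markers summed to 20.9 to 21.6, 24.4 to 25.4 and 8.58 to 11.4 FPKM, and cholangiocyte markers to 2.99 to 3.97, 5.93 to 11.2 and 2.01 to 3.12. Kupffer cell markers summed to 47.9 to 53 FPKM, 56.3 to 80.4 and 64.9 to 70.6, and lymphocyte markers to 2.01 to 2.14, 1.09 to 1.32 and 0.66 to 1.3. Of 6 Kupffer cell markers 2 were called higher after APAP, and of 6 periportal markers 1, beside 23.3% of all genes tested. The part of these cell types in the mitochondrial values was not tested.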

How the data were processed

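Poly(A) RNA of mouse liver was sequenced in paired ends from RNA with an integrity number above 7.0 (per the labels' protocols). The titles place 6 libraries in 3 groups. The authors deposited 1 table of estimated counts and FPKM per gene in every library, per the file headers. HISAT2 2.0 and StringTie 1.3.0 are named in the submitters' processing notes. The build used for alignment was not given in the sources used here. A further 6 columns of per-sample values matched no sample and were not used. The estimated counts were whole numbers, most often multiples of 4 when small. Of the table's genes, 55141 were in GENCODE M21, and 94.2% of these had identical coordinates there. Sequences come from its transcripts; none of the 37 members has an entry in the promoter table used here.

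The 10051 genes whose mean FPKM reached 1 were tested with edgeR 4.0.16 (R 4.3.3), TMM scaling, a quasi-likelihood F test of the 3 groups over all 6 libraries and Benjamini-Hochberg adjustment, and called at an adjusted p below 0.05. The SE is the size of the log2 fold change over the root of F. Non-overlap of groups was counted on TMM-scaled CPM, and FPKM overlaps are named as such. The code was tested on simulated counts. Alternatives used DESeq2 1.42.0, limma 3.58.1 on log2(FPKM + 1) or log2(FPKM + 0.1), library totals without TMM, nuclear genes alone, other filters, counts divided by 4, the compared groups alone, each library left out, and a replicate block. Fits relative to the summed mRNA counts and shares without the nuclear copies were added after seeing the data. The members and lists were chosen with earlier results of these data known. The named nuclear genes are every tested gene of transcription, every nuclear copy, and the 2 called genes of each other list with the largest absolute change in APAP against control. Of these, 1 gene is not reported here. tRNA rows that passed the filter are given by their FPKM, with fold changes of those called and of neighbours named beside them.

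The same-numbered control and APAP libraries did not show a pairing: their deviations from the group means correlated at r = 0.0175 over the tested genes, a single value with 2 pairs. Such a value cannot exclude a shared replicate effect on the mitochondrial genes.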

Additional observations from a re-analysis of the deposited data

How the results depend on the processing

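Under every other setting tried for it (nuclear genes alone, no *Alb*, FPKM, no nuclear copies, each library left out) the summed share of the 13 mRNAs kept its direction in all 3 comparisons. Without TMM the median log2 fold change of all genes shifted to -0.15 for APAP against control and -0.16 for COS+APAP against control, and 1869 of 4683 (39.9%) and 706 of 2350 called genes were higher, against 51.3% and 50.9% with TMM. limma on log2(FPKM + 1) gave 40.7% and 29.4%, and on log2(FPKM + 0.1) 40.4% and 30.5%.

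For APAP against control, the 10 called mRNAs became 0 to 11 with 1 library left out, the 1 called rRNA 0 throughout, and the 6 called tRNAs 3 to 8. No filter left 0 rRNAs called. With the replicate block, 1 mRNA (*mt-Nd3*, adjusted p = 0.0402), 0 rRNAs and 4 tRNAs were called, and 3370 in place of 4561 genes over the whole table. The check of pairing in the methods is a single correlation and cannot exclude a replicate effect on these genes. COS+APAP shares only the number 3 with the other groups, and the block was used for APAP against control alone. Relative to the summed mRNA counts, 0 mRNAs, 0 rRNAs and 10 tRNAs (5 higher and 5 lower of 21) were called, beside 4650 higher and 534 lower of 10051 genes (median 0.72); by construction such a fit sets aside a change common to the 13.

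Between COS+APAP and APAP, the 4 called mRNAs became 11 with DESeq2, 2 with no filter and 0 with any library left out, and 0 relative to the mRNA sum. The 2 called tRNAs became 4 with DESeq2, 1 without TMM, 1 with no filter, 1 at a mean FPKM of at least 5, 0 to 1 with a library left out, and 5 relative to the mRNA sum. Leave-outs moved *mt-Rnr1* from -0.33 to 0.16 and *mt-Rnr2* from -0.61 to 0.16.

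Between COS+APAP and control, the 1 called mRNA became 2 with DESeq2, 0 with no filter, 0 with the compared groups alone, 0 to 1 with a library left out and 0 relative to the mRNA sum. The rRNAs went from 0 to 1 with DESeq2, without TMM and with limma at either pseudocount. The 1 called tRNA became 2 with DESeq2 and 0 to 1 with a library left out. *mt-Atp8* (0.01) was -0.01 with DESeq2 and with nuclear genes alone, -0.17 without TMM, -0.15 with limma at either pseudocount, 0.0 with the compared groups alone and -0.15 to 0.16 in leave-outs. *mt-Nd4l* (0.03) was -0.14 without TMM, -0.12 with limma at either pseudocount and -0.14 to 0.22 in leave-outs. Leave-outs ran from -0.25 to 0.13 for *mt-Nd2*, -0.28 to 0.06 for *mt-Atp6* and -0.20 to 0.08 for *mt-Cytb*. The cause of these differences was not tested. The number of libraries, 2 a group, limits every comparison; for the tRNA rows, which held from 1 to 11545 counts, depth limits the precision too.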
